A study of Mus musculus with 28 samples.

Results

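Antimycin A and 3-nitropropionic acid (3-NPA) stop the mitochondrial respiratory chain at different enzymes. 3-NPA inactivates complex II, succinate dehydrogenase, which oxidizes succinate in the tricarboxylic acid (TCA) cycle and hands the electrons to ubiquinone. Antimycin A blocks complex III, which reoxidizes the ubiquinol made by complex I, complex II and other dehydrogenases, among them DHODH of pyrimidine synthesis. Regulatory T (Treg) cells are the CD4+ T cells that restrain immune responses, and their lineage is set by the transcription factor Foxp3.

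The comparison rests on 6 of the 28 RNA-seq libraries of the study, chosen by their labels: 3 of Treg cells kept in vitro with 1 µM antimycin A and 3 of cells kept with 500 µM 3-NPA, and it covers every expressed gene. The cells were sorted as CD4+, YFP-Foxp3+ and CD25+ from 3-week-old C57BL/6NJ mice of the RISP wild-type genotype, RISP being the Rieske iron-sulfur protein of complex III. In the same count table, 3 libraries of such cells with piericidin at 1 µM, which blocks complex I, and 3 of untreated cells serve as further levels. The labels give no time of exposure, no measure of respiration and no statement that replicates are separate mice or cultures. A difference between the compounds and a difference between their doses cannot be told apart, and p-values measure a spread between libraries that could be technical alone.

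The 12 in vitro libraries held 2.71 to 3.45 M counts, and 11689 genes passed the filter on low counts. Levels are given as CPM, a gene's counts scaled to a library total of 1 M, and they compare libraries, not genes of different length. Markers of Treg cells were present in all 6 libraries: Foxp3 stood at 549 to 776 CPM with antimycin A and 584 to 622 CPM with 3-NPA, and Ctla4, an inhibitory receptor, at 736 to 882 CPM with antimycin A and 779 to 853 CPM with 3-NPA. The marker Ikzf2 was lower with antimycin A, at 1090 to 1180 CPM against 1290 to 1350 CPM with 3-NPA, with no overlap. Cd4 was higher, at 461 to 536 CPM against 409 to 453 CPM with 3-NPA, also without overlap. The 2 groups did not overlap for 21.3% of all genes tested, so these ranges alone do not mark a difference. Il2rb (851 to 954 against 793 to 914 CPM) and Tnfrsf18 (760 to 860 against 700 to 844 CPM) overlapped. Markers of other cells were not all absent. Ms4a1 (B cells), Adgre1 and C1qb (macrophages), Itgax (dendritic cells) and Ncr1 (natural killer cells) had no count in the 6 libraries, while Csf1r (macrophages) had 9.01 to 19.9 CPM, Zbtb46 (dendritic cells) 5.17 to 19.7 CPM and Prf1 (natural killer cells) 0.345 to 4.43 CPM. The summed level of 10 B cell markers was 348 to 440 CPM with antimycin A and 320 to 463 CPM with 3-NPA, of which Ighm alone held 309 to 449 CPM. The 12 macrophage and monocyte markers summed to 15.5 to 25.5 CPM with antimycin A and 15.9 to 19.2 CPM with 3-NPA. The 8 dendritic cell markers summed to 13.7 to 17 CPM with antimycin A and 7.39 to 22.6 CPM with 3-NPA, and the 7 natural killer cell markers to 1.17 to 5.4 CPM with antimycin A and 0.69 to 4.43 CPM with 3-NPA. The 6 plasma cell markers summed to 5.04 to 23.1 CPM with antimycin A and 4.49 to 4.8 CPM with 3-NPA. In bulk RNA, fewer cells of a state and less RNA per cell cannot be told apart.

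The genes called lower with antimycin A than with 3-NPA included most of those listed for cell division and some of nucleotide synthesis, glycolysis and protein folding. Those called higher included Atf4 and several of its targets, the death factor Bcl2l11 and chains of the T cell receptor complex. In all, 465 of the 11689 genes tested were called at an adjusted p under 0.05 (edgeR quasi-likelihood test, Benjamini-Hochberg adjustment over all genes tested), 3.98%, of which 187 were higher (1.6%) and 278 lower (2.38%) with antimycin A. The changes were small for most genes: the log2 fold change of all genes had a median of 0.01 and ran from -0.48 to 0.43 between the 10th and the 90th percentile. More than 2-fold changes were mostly on the lower side, with 21 called genes higher and 90 lower by that much. CPM of the 2 groups did not overlap for 445 of the 465 called genes and for 21.3% of all genes tested. An unadjusted p under 0.05 was reached by 1949 of the 11689 genes. The size of the list depended on single libraries. It came to 194 genes without antimycin A replicate 3, 308 without antimycin A replicate 2, 188 without 3-NPA replicate 1 and 279 without 3-NPA replicate 3.

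**Figure D1:**
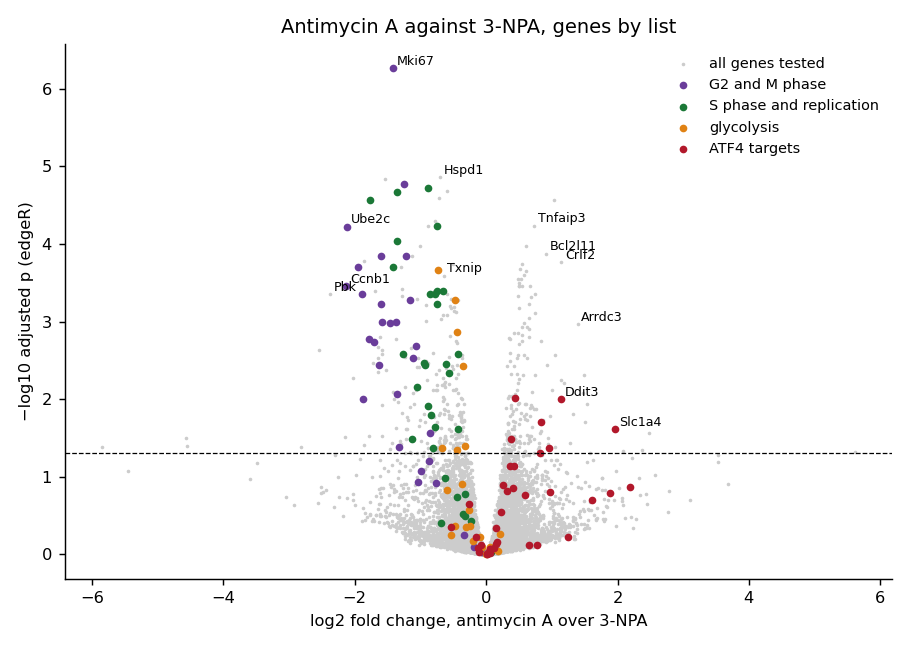
Log2 fold change of antimycin A over 3-NPA (x axis) against -log10 of the adjusted p (y axis) for all genes tested in grey, with members of 4 gene lists in colour and the dashed line at an adjusted p of 0.05. Called members of the G2 and M phase, S phase and glycolysis lists lie on the left (lower with antimycin A) and those of the ATF4 list on the right.

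Against the 3 untreated libraries, the compounds differed in how many genes they moved. Antimycin A had 1754 genes called (15%), 760 higher (6.5%) and 994 lower (8.5%), and 3-NPA had 377 (3.23%), 158 higher (1.35%) and 219 lower (1.87%). The 3-NPA count came to 180 and 130 without 3-NPA replicate 2 or 3, and to 153 and 172 without untreated replicate 1 or 3. These comparisons share the untreated libraries with each other, and their values are given beside the direct comparison only to place its levels.

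Of the gene lists described, that of the G2 and M phases had the lowest median. Of 29 tested, 22 were lower with antimycin A than with 3-NPA and 0 higher, against 2.38% and 1.6% of all genes, and the median log2 fold change of the 29 was -1.35, against 0.01 for all genes. Mki67, the proliferation antigen Ki-67 (chromosome 7, 135689788 to 135716379 of mm10), had 126, 141 and 59.6 CPM with antimycin A, against 322, 264 and 298 CPM with 3-NPA. All 3 antimycin A libraries lay below all 3 with 3-NPA, and replicate 3 was the lowest. On the log2 scale the difference came to -1.41 ± 0.16 (SE; n = 3 in either group, as throughout; adjusted p = 5.46e-07), the smallest p of any gene tested. Untreated cells had 399, 532 and 395 CPM of Mki67, so 3-NPA also stood below them (-0.62, adjusted p = 0.0104).

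Among called genes whose mean log2 CPM reached 3 and whose groups did not overlap, 9 of the 10 largest falls were of genes that drive or carry out mitosis, and some genes of lower counts fell more. Ube2c, the ubiquitin-conjugating enzyme of the anaphase-promoting complex, had 6.12, 15.2 and 4.42 CPM with antimycin A, against 58.7, 29.9 and 28.4 CPM with 3-NPA. The change was -2.12 ± 0.32 (adjusted p = 6.06e-05). Ccnb1, the cyclin that starts mitosis with Cdk1, had 3.96, 7.91 and 2.21 CPM with antimycin A, against 30.4, 20.7 and 13.6 CPM with 3-NPA (-2.13 ± 0.37, adjusted p = 0.000352). The polo kinase Plk1 (-1.95 ± 0.33), the spindle kinase Aurka (-1.89 ± 0.34), the cyclin Ccnb2 (-1.79 ± 0.36), the mitotic kinase Pbk (-2.37 ± 0.43), the centrosome kinase Nek2 (-2.02 ± 0.46), the checkpoint ATPase Trip13 (-1.87 ± 0.30) and the kinetochore subunit Spc24 (-1.72 ± 0.37) fell too. Top2a, which untangles replicated DNA (-1.26 ± 0.17), and the spindle checkpoint kinase Bub1b (-1.22 ± 0.20) fell less steeply. Of these, Nek2 lost its call without 3-NPA replicate 1 and with DESeq2. Among the 7 members not called were Cdk1 (-0.87, adjusted p = 0.0616), Cdc20 (-0.98, adjusted p = 0.083) and Foxm1 (-0.76, adjusted p = 0.121).

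Antimycin A replicate 3 stood apart in this group. The median of the 29 genes, each centred on its mean over the 12 libraries, was -0.60, -0.56 and -1.79 (log2 CPM) with antimycin A and 0.78, 0.17 and 0.38 with 3-NPA. Piericidin libraries lay at -0.31, -0.25 and -0.79, and untreated libraries at 1.05, 1.14 and 0.88. Without antimycin A replicate 3, 16 of the 29 were called, and without another library of the 2 groups 18 to 24. Against untreated cells, 28 of the 29 were lower with antimycin A (8.5% of all genes) and 8 with 3-NPA (1.87%), with medians of -1.99 for antimycin A and -0.61 for 3-NPA.

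Promoters of genes of this group are known for CHR elements, bound by the DREAM complex, and CCAAT boxes, bound by NF-Y. The sequences of Ube2c, Ccnb2 and Top2a are shown from position -150 to 30 relative to the start of transcription, from RefSeq (GRCm38.p6), written 5′ to 3′ on the strand of the gene. Capitals mark TTTGAA (CHR) and CCAAT on either strand, so that TTCAAA and ATTGG are their matches on the other strand.
Ube2c (chr2:164769779-164769958, plus strand): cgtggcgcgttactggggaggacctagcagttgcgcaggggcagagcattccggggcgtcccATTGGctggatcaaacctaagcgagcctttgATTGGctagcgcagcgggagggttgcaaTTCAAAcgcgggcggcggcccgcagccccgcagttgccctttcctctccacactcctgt
Ccnb2 (chr9:70421525-70421704, minus strand): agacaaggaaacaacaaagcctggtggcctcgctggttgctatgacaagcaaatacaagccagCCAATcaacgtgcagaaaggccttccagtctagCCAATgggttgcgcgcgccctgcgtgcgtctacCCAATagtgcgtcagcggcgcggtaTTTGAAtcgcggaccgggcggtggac
Top2a (chr11:99024160-99024339, minus strand): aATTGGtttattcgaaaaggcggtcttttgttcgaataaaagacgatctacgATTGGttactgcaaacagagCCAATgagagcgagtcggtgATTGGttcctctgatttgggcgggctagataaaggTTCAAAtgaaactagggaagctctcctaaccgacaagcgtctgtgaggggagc
Of the 22 lower genes, 18 had a promoter in the table, and in windows of 250 bases before to 50 after the start, 12 of the 18 (66.7%) held TTTGAA and 15 (83.3%) held CCAAT. Among all promoters in the table the shares were 17.9% and 37.4%, and among promoters of the genes tested 12% and 38%. Of 24 promoters of the lower S phase genes, 12.5% held TTTGAA and 58.3% CCAAT. A match describes the letters only and does not show binding. Uncalled members of the lists were not counted apart, so the shares do not bear on the difference between the inhibitors.

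DNA replication genes were lower as well. Of 32 tested, 24 were lower with antimycin A and 0 higher, against 2.38% and 1.6% of all genes, with a median log2 fold change of -0.76. Cdc6, which loads the replicative helicase, had 10.4, 12.6 and 8.46 CPM with antimycin A, against 34.9, 36.2 and 38 CPM with 3-NPA (-1.76 ± 0.25, adjusted p = 2.69e-05). The DNA ligase Lig1 had 88.6, 96.1 and 77.7 CPM with antimycin A, against 171, 140 and 178 CPM with 3-NPA (-0.88 ± 0.12, adjusted p = 1.88e-05), and the helicase subunit Mcm2 179, 180 and 125 CPM with antimycin A, against 311, 232 and 282 CPM with 3-NPA (-0.75 ± 0.11, adjusted p = 5.81e-05). Neither pair of groups overlapped. Against untreated cells, 31 of the 32 were lower with antimycin A (8.5% of all genes) and 13 with 3-NPA (1.87%), with medians of -1.30 for antimycin A and -0.52 for 3-NPA. In the direct comparison, 15 of the 32 were called without antimycin A replicate 3, and also 15 without 3-NPA replicate 1.

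**Figure D2:**
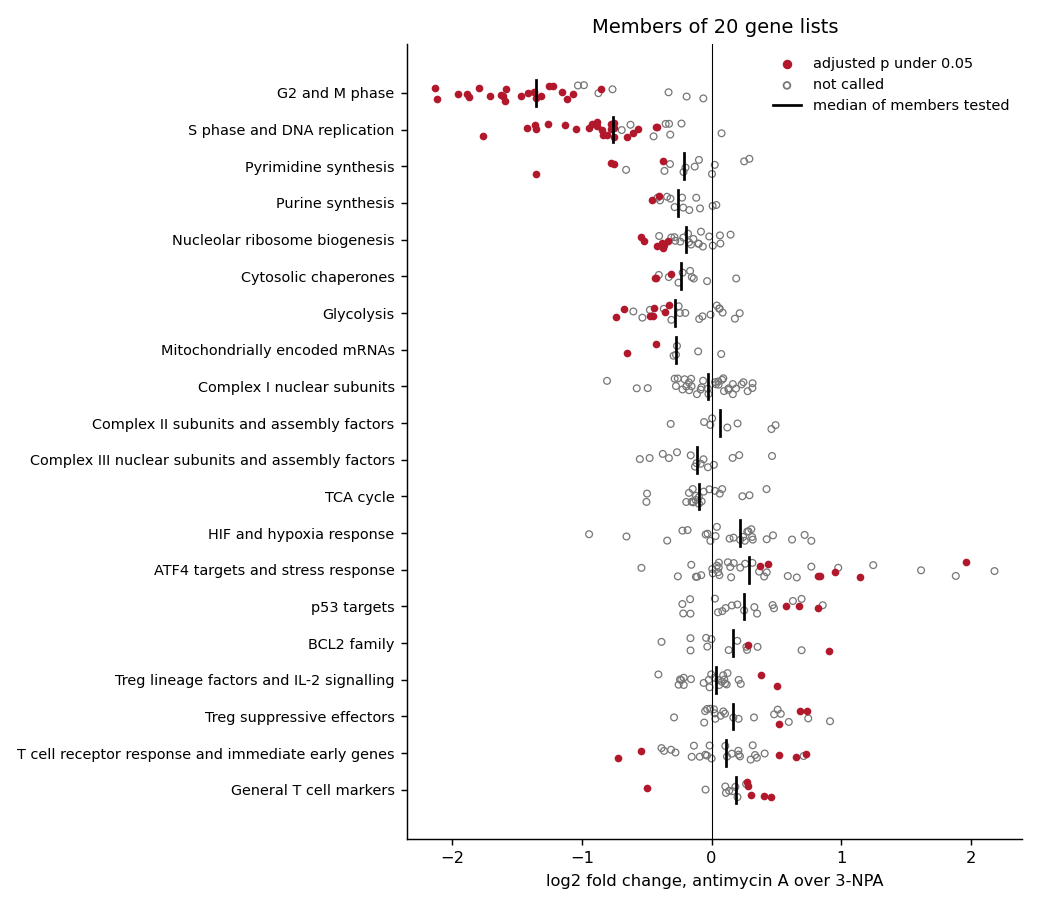
Log2 fold change of antimycin A over 3-NPA (x axis) for each tested member of 20 gene lists (rows), filled where the adjusted p was under 0.05, with a bar at the median of the list. Cell cycle lists lie furthest to the left, with medians of -1.35 and -0.76, and the ATF4 list has a median of 0.29.

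Several enzymes that supply DNA precursors fell, while Dhodh, the pyrimidine enzyme that feeds ubiquinone, was not called. Of 15 pyrimidine genes, 4 were lower and 0 higher, against 2.38% and 1.6% of all genes. They were both subunits of ribonucleotide reductase, Rrm2 and Rrm1, the thymidylate synthase Tyms and Cad, which carries the first steps of pyrimidine synthesis. The first 3 also belong to the S phase list. Rrm2 had 59.4, 49.5 and 20.2 CPM with antimycin A, against 108, 113 and 114 CPM with 3-NPA (-1.35 ± 0.19, adjusted p = 2.15e-05), with no overlap and the lowest value in replicate 3. Rrm1 changed by -0.75 ± 0.14, Tyms by -0.78 ± 0.21 and Cad by -0.37 ± 0.10, the last with overlapping groups. Dhodh read 31.3, 22.6 and 29.8 CPM with antimycin A, against 24.9, 27.7 and 31.3 CPM with 3-NPA (0.00 ± 0.23, adjusted p = 0.996). Of 14 purine genes, 2 were lower, Paics (-0.46 ± 0.11) and Gart (-0.40 ± 0.11), against 2.38% of all genes. Cad and Gart lost their calls without either of several libraries, among them antimycin A replicates 2 and 3, Tyms without antimycin A replicate 3 or 3-NPA replicates 1 or 3, and Paics without 3-NPA replicate 1. The pyrimidine count was 2 without antimycin A replicate 3, 3-NPA replicate 1 or 3-NPA replicate 3. The purine count was 4 with DESeq2 and without antimycin A replicate 1, 0 without 3-NPA replicate 1, and 1 without antimycin A replicate 2 or 3 or 3-NPA replicate 2.

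Of 24 glycolysis genes, 7 were lower with antimycin A and 0 higher, against 2.38% and 1.6% of all genes, with a median of -0.28. Tpi1, triose phosphate isomerase (chromosome 6, 124810586 to 124814296), had 130, 105 and 95 CPM with antimycin A, against 196, 182 and 178 CPM with 3-NPA, with no overlap (-0.74 ± 0.12, adjusted p = 0.000219). Ldha, which turns pyruvate into lactate, had 638, 618 and 584 CPM with antimycin A, against 947, 854 and 775 CPM with 3-NPA (-0.47 ± 0.09, adjusted p = 0.000531). Gapdh (-0.45 ± 0.09, adjusted p = 0.00135) and the pyruvate kinase Pkm (-0.36 ± 0.08, adjusted p = 0.00375) were also below 3-NPA in all 3 libraries, and the other members called were Eno1, Eno3 and Hk2. The glucose transporters Slc2a1 (-0.01) and Slc2a3 (0.09) were not called. The 3 antimycin A libraries had list medians of -0.17, -0.18 and -0.21, and the 3-NPA libraries 0.09, 0.04 and 0.05, close to the untreated range of -0.02 to 0.09. Without antimycin A replicate 3, 4 of the 24 were called, and likewise 4 without 3-NPA replicate 1.

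The glucose-sensing arrestins Txnip and Arrdc3 moved in opposite directions. Txnip, which limits glucose uptake, had 195, 212 and 219 CPM with antimycin A, against 271, 392 and 327 CPM with 3-NPA (-0.64 ± 0.11, adjusted p = 0.000255). Arrdc3, an adaptor for receptor degradation, had 28.8, 22.3 and 26.1 CPM with antimycin A, against 12.4, 8.5 and 8.71 CPM with 3-NPA (1.39 ± 0.27, adjusted p = 0.00108). The groups of Txnip did not overlap. Untreated cells had 213, 267 and 219 CPM of Txnip and 16.4, 20.4 and 14.8 CPM of Arrdc3. Txnip was thus above untreated cells with 3-NPA (0.46, adjusted p = 0.0106) and was not called with antimycin A (-0.18, adjusted p = 0.302). An antisense transcript, Gm15441, overlaps Txnip at a mean of 65 CPM, and the strand setting of the counts is not given in the sources used here.

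Some chaperones and genes of ribosome assembly fell. Hspd1, the mitochondrial chaperonin Hsp60 (chromosome 1, 55077835 to 55088243), had 246, 259 and 230 CPM with antimycin A, against 445, 362 and 403 CPM with 3-NPA, and the groups were well separated (-0.70 ± 0.09, adjusted p = 1.39e-05). It was the 1 member called of 18 mitochondrial chaperones and proteases, against 3.98% of all genes. It shares its locus with Hspe1, on the opposite strand at a mean of 130 CPM. Of 12 cytosolic chaperones, 3 were lower and 0 higher by edgeR, against 2.38% and 1.6% of all genes (5 called by DESeq2). The 3 were Hspa8 (-0.43 ± 0.08, adjusted p = 0.00053), Hsp90aa1 (-0.43 ± 0.10, adjusted p = 0.00474) and the chaperonin subunit Cct5 (-0.31 ± 0.09, adjusted p = 0.0294). Of 26 nucleolar genes, 7 were lower and 0 higher, against 2.38% and 1.6% of all genes, with a median of -0.20. Myc, the growth regulator of ribosome production, had 285, 227 and 238 CPM with antimycin A, against 393, 337 and 371 CPM with 3-NPA (-0.54 ± 0.10, adjusted p = 0.000665). Untreated cells had 349, 326 and 364 CPM of Myc, and 3-NPA was not called against them (0.04, adjusted p = 0.884). Nucleolin, Ncl (-0.37 ± 0.08), the pseudouridine synthase Dkc1 (-0.52 ± 0.11) and the snoRNP protein Nop58 (-0.37 ± 0.09) also fell. Cct5 lost its call without antimycin A replicate 2 or 3 or 3-NPA replicate 1 or 3, and Nop58 without 3-NPA replicate 1. Without 3-NPA replicate 1, 3 nucleolar genes were called, and without antimycin A replicate 3, 4.

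Genes of the ATF4 response, through which cells meet amino acid shortage and mitochondrial stress, moved up in part. Of 38 tested, 7 were higher with antimycin A and 0 lower, against 1.6% and 2.38% of all genes, and the median was 0.29, or 0.17 in a fit of only the 2 groups. Atf4 itself (chromosome 15, 80255184 to 80257540) had 224, 204 and 230 CPM with antimycin A, against 145, 183 and 164 CPM with 3-NPA, with no overlap (0.43 ± 0.10, adjusted p = 0.00962). Untreated cells had 204, 201 and 221 CPM, so the antimycin A libraries lay near untreated cells (0.05, adjusted p = 0.821) and the 3-NPA libraries below them (-0.39, adjusted p = 0.0302). Ddit3, the stress factor CHOP, had 25.9, 28.7 and 26.1 CPM with antimycin A, against 9.66, 14.4 and 12.8 CPM with 3-NPA (1.15 ± 0.28, adjusted p = 0.01), and 24, 19.6 and 21.9 CPM in untreated cells. Ddit3 overlaps Mars on the opposite strand, at a mean of 160 CPM.

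Asns differed in that antimycin A, not 3-NPA, stood off the untreated level. This asparagine synthetase had 50.4, 39 and 41.6 CPM with antimycin A, against 33.1, 22.2 and 18.9 CPM with 3-NPA (0.84 ± 0.22, adjusted p = 0.0198), and 20.9, 23.9 and 19.6 CPM in untreated cells. Slc1a4, a transporter of alanine, serine and cysteine, had 8.65, 14.1 and 14.3 CPM with antimycin A, against 2.42, 0 and 6.67 CPM with 3-NPA (1.96 ± 0.53, adjusted p = 0.0245), few counts in all. The other members called were Slc3a2, Cebpb and Sesn2. In the whole list of 38, 11 were higher and 4 lower with antimycin A than in untreated cells, against 6.5% and 8.5% of all genes. With 3-NPA, 0 were higher and 6 lower, against 1.35% and 1.87% of all genes. Calls in this list rested on single libraries: without antimycin A replicate 3 or any 1 of the 3-NPA libraries 2 of the 38 were called, and without antimycin A replicate 1 or 2 there were 5 and 4. Asns lost its call without antimycin A replicate 1 or 3 or 3-NPA replicate 2 or 3, Atf4 without antimycin A replicate 3 or 3-NPA replicate 1 or 3, Ddit3 without 3-NPA replicate 1, and Slc1a4 without antimycin A replicate 2 or 3 or 3-NPA replicate 1 or 2.

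The C/EBP-ATF response element (CARE) is the site at which ATF4 binds its targets. The promoters of Asns and Slc1a4, the 2 of the 7 higher genes that hold TGATGNAA in the RefSeq window (28.6%), are printed over the same span as above, with the match in capitals (on the other strand in Slc1a4).
Asns (chr6:7693180-7693359, minus strand): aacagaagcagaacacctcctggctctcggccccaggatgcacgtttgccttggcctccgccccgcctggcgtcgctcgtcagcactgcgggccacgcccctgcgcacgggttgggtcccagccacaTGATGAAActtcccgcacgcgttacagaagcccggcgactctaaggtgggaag
Slc1a4 (chr11:20332684-20332863, minus strand): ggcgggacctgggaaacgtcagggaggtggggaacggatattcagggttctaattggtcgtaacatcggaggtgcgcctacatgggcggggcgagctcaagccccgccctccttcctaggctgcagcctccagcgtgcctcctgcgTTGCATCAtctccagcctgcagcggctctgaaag
The motif stood in 3.97% of all promoters and in 2.21% of those of the genes tested. The list was made of ATF4 targets and its uncalled members were not counted apart. These shares therefore do not bear on the difference between the inhibitors. No match in the other 5 says only that these letters are not in their windows.

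**Figure D3:**
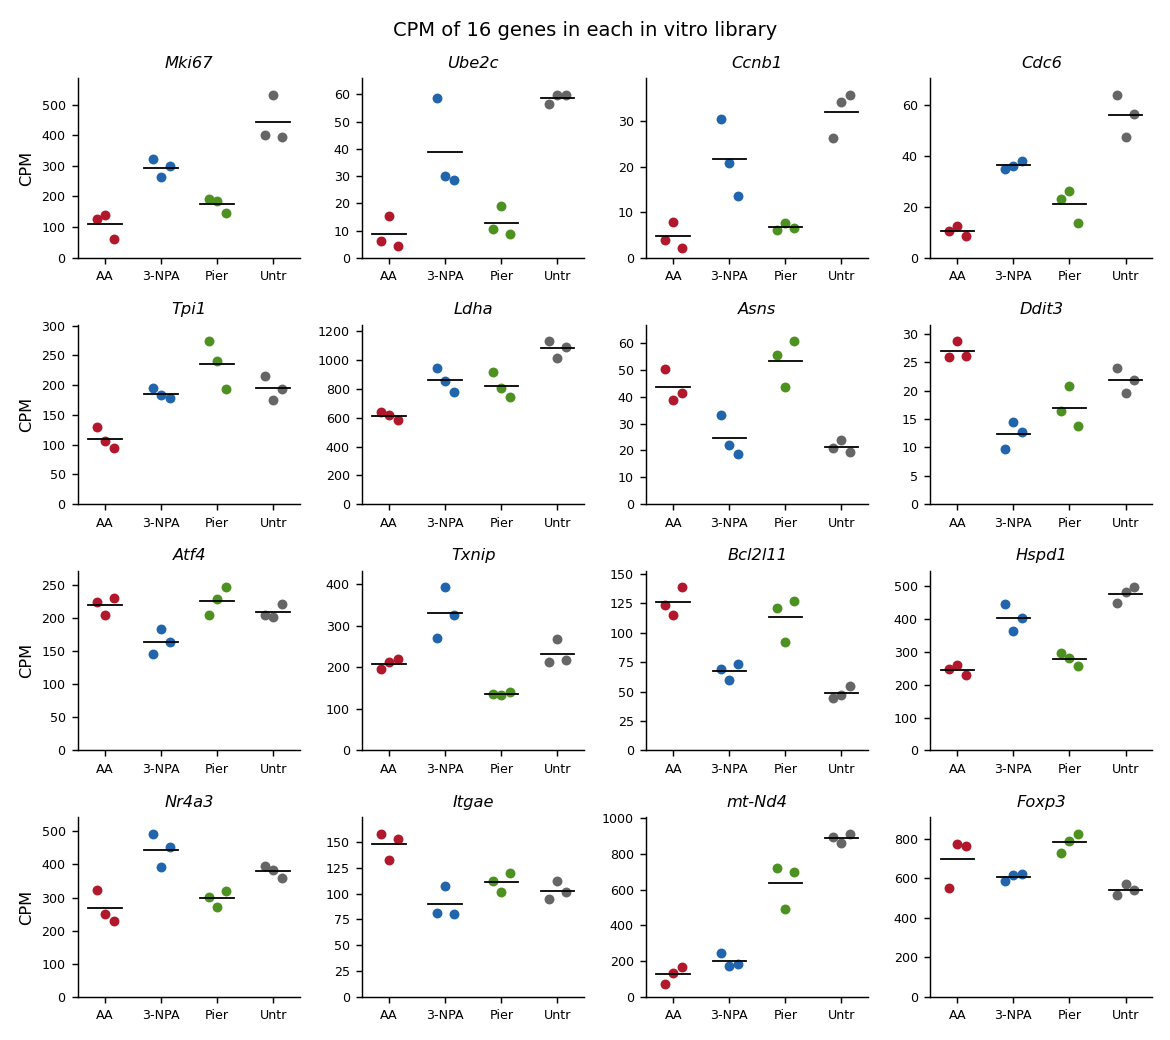
CPM (y axes, from 0) of 16 genes in each of the 12 in vitro libraries, by group: antimycin A (AA), 3-NPA, piericidin (Pier) and untreated (Untr), with a bar at the mean of 3 libraries. Mki67 is 59.6 to 141 CPM with antimycin A and 264 to 322 CPM with 3-NPA, and Bcl2l11 is 115 to 138 CPM with antimycin A and 59.5 to 73.4 CPM with 3-NPA.

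Some genes of cell death and of the p53 response were higher with antimycin A. Bcl2l11, the death-promoting BCL2 relative Bim (chromosome 2, 128126038 to 128162547), had 123, 115 and 138 CPM with antimycin A, against 69.4, 59.5 and 73.4 CPM with 3-NPA, with no overlap (0.91 ± 0.14, adjusted p = 0.000134). Untreated cells had 44.9, 47.3 and 54.3 CPM. The survival factor Bcl2 was higher too (0.28 ± 0.08, edgeR adjusted p = 0.0436), the second of 14 family members called, against 3.98% of all genes. Its call was lost when any 1 of the 6 libraries was left out. Of 21 p53 targets, 3 were higher and 0 lower by edgeR, against 1.6% and 2.38% of all genes, with a median of 0.25 (6 called by DESeq2). Ccng1, a cyclin G induced by p53, had 554, 446 and 421 CPM with antimycin A, against 338, 320 and 307 CPM with 3-NPA (0.57 ± 0.10, adjusted p = 0.000253). It had 204, 234 and 234 CPM in untreated cells, so both inhibitors lay above them. The death receptor Fas (0.67 ± 0.19, adjusted p = 0.0294) and the stress sensor Sesn2 (0.82 ± 0.25, adjusted p = 0.0491) were the others, and each lost its call without several libraries, among them antimycin A replicates 1 and 3. The p53 count was 1 without antimycin A replicate 1 or 3 or 3-NPA replicate 2 or 3. Cdkn1a, the cell cycle inhibitor p21, had 113, 81.7 and 79.9 CPM with antimycin A and 96.7, 92 and 83.6 CPM with 3-NPA, against 20.2, 30.1 and 37.1 CPM in untreated cells. It was not called between the inhibitors (0.03 ± 0.18, adjusted p = 0.965) and was higher than untreated with each, by 1.63 with antimycin A (log2, adjusted p = 3.66e-08) and 1.60 with 3-NPA (adjusted p = 3.81e-07). Against untreated cells, 13 of the 21 p53 targets were higher with antimycin A (6.5% of all genes) and 4 with 3-NPA (1.35%).

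**Figure D4:**
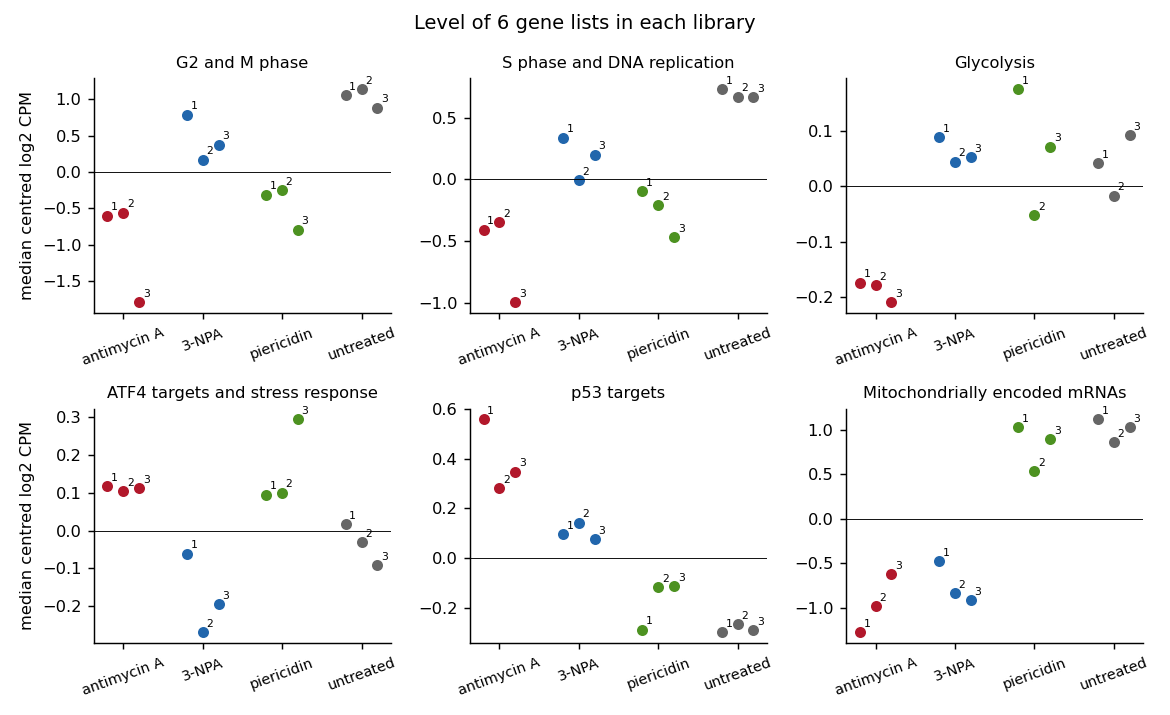
Median over the tested members of 6 gene lists of log2 CPM centred on each gene's mean over 12 libraries (y axes), in each library by group, with replicate numbers. In the G2 and M phase list antimycin A replicate 3 lies at -1.79 and the other antimycin A libraries at -0.60 and -0.56, and mitochondrially encoded mRNAs lie below 0 in all 6 libraries of antimycin A and 3-NPA.

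Messages encoded by mitochondrial DNA specify core subunits of complexes I, III and IV and of ATP synthase, and those measured were low with both inhibitors. Of the 13, 7 passed the filter on counts. mt-Nd3 reached 0.292 CPM, and mt-Nd4l, mt-Co2, mt-Co3, mt-Atp6 and mt-Atp8 had no count in any library. The values thus cover part of the genome and neither ATP synthase message. All 7 were lower than in untreated cells with antimycin A and with 3-NPA, with medians of -1.95 for antimycin A and -1.92 for 3-NPA. Between the inhibitors, 2 were lower with antimycin A, against 2.38% of all genes. The median of the 7 was -0.27, which came to -0.42 without antimycin A replicate 3 and -0.18 without 3-NPA replicate 1. The complex I subunit mt-Nd4 had 74.6, 136 and 166 CPM with antimycin A, against 246, 171 and 183 CPM with 3-NPA (-0.66 ± 0.16, adjusted p = 0.0105), and 894, 860 and 913 CPM in untreated cells. The groups of the 2 inhibitors lay just apart. mt-Nd2 was the other (-0.42 ± 0.11, adjusted p = 0.0256). Both calls were lost with DESeq2 and without antimycin A replicate 1 or 3-NPA replicate 1, and that of mt-Nd2 also without 3-NPA replicate 2. The complex III subunit mt-Cytb had 262, 400 and 438 CPM with antimycin A, against 516, 459 and 373 CPM with 3-NPA, overlapping groups that were called only when no filter on low counts was used (-0.27 ± 0.12, adjusted p = 0.216), and 2892, 2495 and 2524 CPM in untreated cells. Piericidin libraries had 2091, 1700 and 2147 CPM of mt-Cytb.

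Nuclear genes of the enzymes that the compounds inhibit were not called between the inhibitors. Sdha, the catalytic subunit of complex II, had 336, 268 and 308 CPM with antimycin A, against 327, 273 and 317 CPM with 3-NPA (0.00 ± 0.09, edgeR adjusted p = 0.987). The subunit Sdhd had 64.9, 72.1 and 62.6 CPM with antimycin A, against 79.4, 79 and 92.3 CPM with 3-NPA, without overlap (-0.32 ± 0.14, adjusted p = 0.232). Against untreated cells, Sdhd was called lower with antimycin A (-0.76, adjusted p = 0.000111) and not with 3-NPA (-0.44, adjusted p = 0.0634). Between the inhibitors, Sdhb changed by -0.01 and Sdhc by 0.12. Uqcrfs1, the gene of RISP, had 62.3, 74.4 and 54.5 CPM with antimycin A, against 70.1, 105 and 68.5 CPM with 3-NPA (-0.33 ± 0.22, adjusted p = 0.482). By edgeR, 0 of 36 complex I, 0 of 8 complex II, 0 of 15 complex III and 0 of 12 complex IV genes were called. At an unadjusted p under 0.05 they numbered 1, 1, 1 and 3, against 1949 of all 11689 genes tested, and by DESeq2 0, 0, 0 and 1. Of 14 ATP synthase genes, 6 had an unadjusted p under 0.05, 4 were called by DESeq2 and 1 by edgeR. The log2 fold change was positive for 2 of the 14. The 1 called by edgeR was the inhibitor Atpif1, which was lower (-0.65 ± 0.19, adjusted p = 0.0423). Its call was lost without antimycin A replicate 2 or 3 or 3-NPA replicate 1 or 3. Of 21 TCA cycle genes, 0 were called by edgeR, 4 had an unadjusted p under 0.05 and 2 were called by DESeq2. Fumarase, Fh1 (-0.50 ± 0.16, adjusted p = 0.0717), and Ogdh (0.29 ± 0.10, adjusted p = 0.0838) came closest.

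Among enzymes that move amino groups and reducing power into mitochondria, 2 of 15 were lower and 0 higher, against 2.38% and 1.6% of all genes. The leucine transaminase Bcat1 had 44, 47.7 and 25 CPM with antimycin A, against 86.6, 65 and 72.8 CPM with 3-NPA, with no overlap (-0.92 ± 0.18, adjusted p = 0.000975). The mitochondrial aspartate transaminase Got2 had 73.1, 82.9 and 72.1 CPM with antimycin A, against 109, 114 and 111 CPM with 3-NPA (-0.54 ± 0.14, adjusted p = 0.0179). Bcat1 kept its call without any 1 library, and Got2 lost it without antimycin A replicate 1 or 3 or 3-NPA replicate 1 or 3. Of the one-carbon list, Tyms, given above, was lower, and so was the serine carrier Sfxn1 (-0.52 ± 0.14, adjusted p = 0.0298). Of 20 aminoacyl-tRNA synthetases, Sars was higher (0.41 ± 0.10, edgeR adjusted p = 0.0141) and Kars lower (-0.42 ± 0.11, adjusted p = 0.0161), against 1.6% and 2.38% of all genes. Of 23 antioxidant genes of the NRF2 program, 2 were higher and 2 lower, against 1.6% and 2.38% of all genes. The glutathione enzyme Gclc (0.47) and the ferritin Fth1 (0.33) were higher and Txn1 (-0.34) and Tkt (-0.29) lower. Their edgeR adjusted p ran from 0.0356 to 0.0492. Sfxn1, Sars, Kars and these 4 genes each lost the call without antimycin A replicate 3, and also without 3-NPA replicate 1, and 0 NRF2 genes were then called by edgeR, against 5 by DESeq2 on all libraries. Hypoxia genes had a median of 0.22, with 0 of 25 called by edgeR and 2 by DESeq2. At an unadjusted p under 0.05 there were 5, against 1949 of all 11689 genes tested. Hif1a came closest to a call by edgeR (0.26 ± 0.08, adjusted p = 0.0646).

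Foxp3, which sets the Treg lineage, had 549, 776 and 762 CPM with antimycin A, against 584, 618 and 622 CPM with 3-NPA, with overlapping groups (0.21 ± 0.09, adjusted p = 0.225). Without antimycin A replicate 1, the lowest of its group, Foxp3 was called higher (0.34, adjusted p = 0.0176), and without antimycin A replicate 2 or 3 its change was 0.11 and 0.12. Il2ra, the IL-2 receptor chain CD25 used in the sort, had 2441, 2272 and 2282 CPM with antimycin A, against 2908, 2449 and 2842 CPM with 3-NPA (-0.21 ± 0.07, adjusted p = 0.0805). Its groups lay just apart, and Il2ra was called lower without 3-NPA replicate 2 (-0.30, adjusted p = 0.00939), with DESeq2 (adjusted p = 0.04), with the replicate block (adjusted p = 0.0387) and with a filter of 1 CPM in 3 libraries (adjusted p = 0.0498). Of 24 genes of the lineage and of IL-2 signalling, 2 were higher and 0 lower by edgeR, against 1.6% and 2.38% of all genes. DESeq2 called 7 and the fit with the replicate block 4. The groups of 10 of the 24 did not overlap, against 21.3% of all genes. An unadjusted p under 0.05 was reached by 8, against 1949 of all 11689 genes tested. The 2 were Stat5b, which carries the IL-2 signal to the nucleus, and the shared receptor chain Il2rg. Stat5b had 411, 515 and 507 CPM with antimycin A, against 339, 336 and 349 CPM with 3-NPA (0.50 ± 0.09, adjusted p = 0.000665). Il2rg changed by 0.38 ± 0.09 (adjusted p = 0.013) and lost its call without antimycin A replicate 1 or 3 or 3-NPA replicate 1 or 2.

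Of 23 suppressive effectors, 3 were higher and 0 lower, against 1.6% and 2.38% of all genes. Tnfrsf9, the costimulatory receptor 4-1BB, had 1201, 1471 and 1505 CPM with antimycin A, against 942, 1052 and 953 CPM with 3-NPA (0.52 ± 0.09, adjusted p = 0.000209). Itgae, which encodes the CD103 chain of an integrin that binds E-cadherin, had 158, 133 and 154 CPM with antimycin A, against 81.5, 108 and 80.4 CPM with 3-NPA (0.74 ± 0.13, adjusted p = 0.000441). Neither gene's groups overlapped. The inhibitory receptor Lag3 was higher (0.69 ± 0.19, adjusted p = 0.0301), but not without antimycin A replicate 1 or 2 or 3-NPA replicate 2 or 3. Ctla4 (-0.03 ± 0.08, adjusted p = 0.887) and Il10, a suppressive cytokine (0.60 ± 0.24, adjusted p = 0.17), were not called. Il10 had 30.6, 27.5 and 33.5 CPM with antimycin A, against 13.1, 20.3 and 27.3 CPM with 3-NPA. Untreated cells had 30.33, 34.17 and 40.15 CPM of Il10. By edgeR, 3-NPA was called below them just under the threshold (-0.81, adjusted p = 0.04896), and antimycin A was not called (-0.22, adjusted p = 0.605).

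Genes induced by the T cell receptor were split, with 3 higher and 2 lower of 28, against 1.6% and 2.38% of all genes. Nr4a3, an orphan nuclear receptor switched on by antigen signals, had 323, 250 and 230 CPM with antimycin A, against 493, 391 and 451 CPM with 3-NPA (-0.72 ± 0.10, adjusted p = 2.52e-05). Tnfaip3, the NF-κB inhibitor A20, went the other way with 239, 279 and 300 CPM with antimycin A, against 162, 155 and 181 CPM with 3-NPA (0.73 ± 0.11, adjusted p = 5.81e-05). Both were called in the same direction without any 1 of the 6 libraries. Nr4a1, which belongs to the same family as Nr4a3, was not called (0.21, adjusted p = 0.291). The other 3 were Myc and Tnfrsf9, given above, and the AP-1 member Fosl2.

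Of 18 resting T cell factors, 3 were higher and 0 lower, against 1.6% and 2.38% of all genes. Il7r, the IL-7 receptor, had 210, 271 and 249 CPM with antimycin A, against 130, 193 and 146 CPM with 3-NPA (0.65 ± 0.13, adjusted p = 0.00124). The transcription factors Ets1 (0.32 ± 0.07, adjusted p = 0.00373) and Klf2 (0.33 ± 0.10, adjusted p = 0.047) were the others, and Klf2 lost its call when any 1 of the 6 libraries was left out. Of 14 general T cell markers, Cd3d, Cd3g, Cd3e, Lck and Cd6 were higher and Thy1 was lower, against 1.6% and 2.38% of all genes. The summed level of the 14 was 7160 to 7360 CPM with antimycin A and 6290 to 6710 CPM with 3-NPA. Cd3d had 293, 313 and 297 CPM with antimycin A, against 209, 249 and 205 CPM with 3-NPA (0.46 ± 0.10, adjusted p = 0.00474), and lost its call without 3-NPA replicate 1 or 3. Thy1, a surface glycoprotein, had 272, 306 and 293 CPM with antimycin A, against 404, 425 and 412 CPM with 3-NPA (-0.50 ± 0.09, adjusted p = 0.000734). Without 3-NPA replicate 1 or 3, 1 of the 14 was called, and without antimycin A replicate 2 or 3 there were 3 and 2. The chemokine receptor Cxcr4 (0.50 ± 0.15, adjusted p = 0.0408) and the interferon-induced Gbp3 (0.44 ± 0.11) and Ly6a (0.64 ± 0.18) were higher, each with a call lost without antimycin A replicate 2 or 3 or 3-NPA replicate 1 or 3, for Cxcr4 without 3-NPA replicate 2 as well, and for Ly6a without antimycin A replicate 1 as well.

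Beside the stress gene Ddit3 and Arrdc3, 8 genes of diverse roles had the largest rises among called genes whose mean log2 CPM reached 3 and whose groups did not overlap, a condition of their choice. Slc1a4, at 1.96, lay outside that choice. Pam, which amidates peptide hormones, had 13.3, 15.2 and 20.2 CPM with antimycin A, against 3.11, 5.17 and 8.42 CPM with 3-NPA (1.53 ± 0.38, adjusted p = 0.0116). Untreated cells had 10.1, 9.05 and 13.5 CPM. The protease cathepsin E, Ctse, had 25.6, 24 and 13.6 CPM with antimycin A, against 7.59, 5.91 and 9.29 CPM with 3-NPA (1.47 ± 0.35, adjusted p = 0.00837) and 6.95, 5.84 and 8.1 CPM in untreated cells. Crlf2, the receptor of the cytokine TSLP, had 86.1, 70.3 and 95.3 CPM with antimycin A, against 48.7, 37.3 and 29 CPM with 3-NPA (1.15 ± 0.19, adjusted p = 0.000171). Crlf2 kept its call without any 1 library. The others were the peroxisomal lyase Hacl1 (1.51 ± 0.40), the glycosylation enzyme Alg12 (1.49 ± 0.33), the EGF receptor inhibitor Errfi1 (1.33 ± 0.34), the antiviral Oas1c (1.28 ± 0.37) and the myosin Myo1f (1.19 ± 0.27). Hacl1 overlaps Btd on the opposite strand. Pam, Hacl1, Errfi1, Oas1c and Myo1f lost their calls without antimycin A replicate 3, and Ctse without antimycin A replicate 1 or 2.

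In the remaining lists few members were called, where 3.98% of all genes were. The lysosome list of 23 had 1 higher, Flcn, the folliculin of nutrient signalling, at 81.4, 84.9 and 93.5 CPM with antimycin A, against 36.9, 61.7 and 49.3 CPM with 3-NPA (0.83 ± 0.17, adjusted p = 0.00176). The list of 2-oxoglutarate-dependent and DNA-methylation enzymes had 1 lower of 24, the maintenance methyltransferase Dnmt1, at 255, 232 and 194 CPM with antimycin A, against 372, 291 and 337 CPM with 3-NPA (-0.54 ± 0.10, adjusted p = 0.000518). Of 46 cytosolic ribosomal proteins 1 was higher, Rps15 (0.32 ± 0.09), with its call lost without antimycin A replicate 2 or 3 or 3-NPA replicate 1 or 3, while 6 were called without 3-NPA replicate 2. By edgeR, 0 of 25 cholesterol genes, 0 of 20 ER chaperone genes, 0 of 42 mitochondrial ribosomal proteins and 0 of 25 genes of mitochondrial transcription were called. At an unadjusted p under 0.05 they numbered 1, 4, 8 and 3, against 1949 of all 11689 genes tested, and by DESeq2 0, 2, 1 and 0.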

How the data were processed

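The authors deposited raw read counts per Ensembl gene. Per the submitters' processing notes, bcl2fastq, TopHat, HTSeq and edgeR were used with build mm10. Versions and the strand setting are not given in the sources used here. A further table, with 11 columns that match no sample of the labels, was not used. Per the labels' protocols, libraries followed poly(A) selection with a NEB kit.

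The 12 in vitro libraries were fitted together in R 4.3.3 with edgeR 4.0.16 (filterByExpr, TMM, glmQLFTest). P-values were adjusted by Benjamini-Hochberg over all genes tested, and a gene was called under 0.05. SE is the log2 fold change divided by the square root of F, and a prior count of 0.125 was used. The test was checked on simulated counts. Genes named are 10 genes of the inhibited complexes and of Treg cells, the 10 largest called rises and falls whose mean log2 CPM reached 3 and whose groups did not overlap, and up to 4 called members of each list with the smallest p (2 uncalled ones where none was). Others, such as Cdkn1a, were chosen after their values were seen. The gene lists and members were chosen with earlier results of these data known. Alternatives were DESeq2 1.42.0, RLE factors, other filters, a 1.5-fold minimum, fits of only the 2 groups, a replicate block and leaving out each library. Motifs were searched in RefSeq promoters (GRCm38.p6). Some genes are not reported here.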

Additional observations from a re-analysis of the deposited data

How the results depend on the processing

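With DESeq2, 789 genes were called between antimycin A and 3-NPA and 688 between 3-NPA and untreated cells. When a change over 1.5-fold was required, 12 were called between the inhibitors, 204 for antimycin A and 9 for 3-NPA against untreated cells. Leaving out 1 library gave 188 to 454 genes between the inhibitors and 130 to 295 for 3-NPA against untreated cells. Other size factors, filters and fits of 2 groups kept the counts within 1.5 times. Replicate numbers are shared by the groups. Same-numbered libraries of antimycin A and 3-NPA deviated together with r of 0.112, 0.023 and 0.01, and differently numbered ones with r from -0.093 to 0.07. Weak correlations over many genes cannot decide whether the numbers pair the samples. The fit with the replicate number as a block called 603 genes between the inhibitors, 1900 for antimycin A and 481 for 3-NPA against untreated cells. Named genes were followed through the alternative runs other than the 1.5-fold minimum. Of 85 called named genes, 44 kept the call in every one of those runs, 32 lost it without antimycin A replicate 3 and 35 without 3-NPA replicate 1. None of the 85 changed sign. The filter on low counts left 11689 of 43430 gene IDs to test.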

Other observations

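Some genes outside the lists were picked after their values were seen. Lif, a cytokine of the IL-6 family, had 26.3, 25.5 and 22.1 CPM with antimycin A, against 70.1, 66.1 and 80.1 CPM with 3-NPA and 65.1, 66 and 54 CPM in untreated cells, with no overlap between the inhibitors (-1.53 ± 0.20, edgeR adjusted p = 1.46e-05). Piericidin libraries had 28, 15 and 16 CPM of Lif. Irf8, a transcription factor of the interferon regulatory family, had 55.5, 80.3 and 62.6 CPM with antimycin A, against 143, 127 and 136 CPM with 3-NPA (-1.01 ± 0.16, adjusted p = 0.000108). Scd2, a stearoyl-CoA desaturase, had 183, 191 and 141 CPM with antimycin A, against 361, 265 and 270 CPM with 3-NPA (-0.78 ± 0.12, adjusted p = 5e-05). Its relative Scd1 had 0, 1 and 0 counts with antimycin A, against 8, 4 and 22 counts with 3-NPA, too few to size the change. Echdc2 had no count with antimycin A, against 5, 4 and 13 counts with 3-NPA, also too few to size the change. With a floor of 3 counts set for the antimycin A group the ratio was 7.22, which is not a lower bound. Neb, the giant muscle protein nebulin, was higher with 165, 141 and 225 CPM with antimycin A, against 86.3, 68 and 107 CPM with 3-NPA (1.03 ± 0.15, adjusted p = 2.69e-05).

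Further subunits of the cytosolic chaperonin that Cct5 belongs to were also lower, Tcp1 (-0.47 ± 0.09, adjusted p = 0.000531), Cct6a (-0.55 ± 0.10, adjusted p = 0.000635) and Cct8 (-0.30 ± 0.08, adjusted p = 0.0328). The T cell receptor constant segments Trbc1 (0.57 ± 0.11, adjusted p = 0.00103) and Trbc2 (0.48 ± 0.09, adjusted p = 0.0014), near-identical genes that can share reads, were higher.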
